A study of Homo sapiens with 3 samples.

Results

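The keratin genes were described across 2 chromatin immunoprecipitation sequencing (ChIP-seq) peak lists from A2780, a human cell line labelled as serous ovarian cancer. The first list comes from a precipitation of Flag-USP39, a tagged component of the splicing machinery, with an antibody to the tag. The second comes from a precipitation of POLR2A, the catalytic subunit of RNA polymerase II, which serves as positive control. Both were called against 1 input library made from 10% of the genomic DNA. There was 1 library per group, so no value has a replicate error, no test across samples could be made, and all values below describe these lists. The sources used here do not state how the tagged protein was introduced or how much of it the cells made. Members were all peaks whose gene symbol is KRT with a number and an optional letter A to C, each position counted once. This gave 71 of 11565 Flag-USP39 peaks and 70 of 14027 POLR2A peaks, on 35 of the 55 keratin genes in RefSeq. The family was singled out and its genes were chosen by their peaks and tag counts in these same lists, so the members' values are a description and support nothing further.

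Keratins are the intermediate filament proteins of epithelial cells. A basic type II keratin pairs with an acidic type I keratin to build a filament, and the genes lie in a cluster for each type, type II on chromosome 12 and type I on chromosome 17, with type I KRT18 beside KRT8 in the type II cluster. KRT8 and KRT18, with KRT7, KRT19 and KRT20, are the keratins of simple epithelia, the kind from which most carcinomas arise. KRT5 and KRT14 mark the basal layer of stratified epithelia, KRT1 and KRT10 the layers above it, and KRT6, KRT16 and KRT17 are induced in wounded or fast-dividing epidermis and are also found in the hair follicle. The keratins of the root sheath and of the hair shaft are formed in the follicle alone or nearly so.

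Both lists were dense at some keratins of the basal layer and of the hair follicle and held few tags at keratins of simple epithelium. In the Flag-USP39 list 26 of 55 keratin genes had a peak (47.3%, 95% Wilson interval 34.7 to 60.2%), where 25.1% of all protein-coding genes had one. In the POLR2A list 29 of 55 had a peak (52.7%, 39.8 to 65.3%), against 33.2% of protein-coding genes. Peaks of 10 or more tags, a tag being a sequenced read placed in the peak, stood at 14 keratin genes in the Flag-USP39 list (25.5%, 15.8 to 38.3%), beside 0.972% of all protein-coding genes. In the POLR2A list such peaks stood at 13 keratin genes (23.6%, 14.4 to 36.3%), beside 1.9%. A peak of the deposited promoter class, within 2 kb of a start site, was found at 19 keratin genes in each list (34.5%, 23.4 to 47.7%). The share over protein-coding genes was 2.47% for Flag-USP39 and 11.1% for POLR2A. Since the keratins were chosen with these values known, the gaps to the background are not evidence of their own. The 2 lists share the input, and 20 keratin genes had a peak in both. With a p-value of at most 1e-10, 14 keratin genes kept a Flag-USP39 peak and 11 a POLR2A peak. The share of all protein-coding genes with a peak in both lists, or at this p-value, was not counted. These numbers therefore cannot be set against a general rate.

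Start-site sequences are shown for 5 genes with peaks at their start in both lists, as printed by RefSeq for GRCh38.p14 (the peaks themselves are on hg19 and were not converted). Each runs 5′ to 3′ on the gene's strand, 250 bases before the start and 50 after it, and capitals mark TATAAA, the TATA box core. KRT71 (chr12:52553096-52553395) and KRT25 (chr17:40755282-40755581) are root sheath keratins, KRT31 (chr17:41397559-41397858) and KRT85 (chr12:52367432-52367731) hair shaft keratins and KRT5 (chr12:52520345-52520644) the basal type II keratin, all on the minus strand.
KRT71: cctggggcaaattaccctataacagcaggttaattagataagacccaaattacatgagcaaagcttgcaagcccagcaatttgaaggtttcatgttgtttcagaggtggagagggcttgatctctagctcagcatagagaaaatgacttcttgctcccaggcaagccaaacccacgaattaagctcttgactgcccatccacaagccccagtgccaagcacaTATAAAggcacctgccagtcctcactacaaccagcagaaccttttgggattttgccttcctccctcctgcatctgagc
KRT25: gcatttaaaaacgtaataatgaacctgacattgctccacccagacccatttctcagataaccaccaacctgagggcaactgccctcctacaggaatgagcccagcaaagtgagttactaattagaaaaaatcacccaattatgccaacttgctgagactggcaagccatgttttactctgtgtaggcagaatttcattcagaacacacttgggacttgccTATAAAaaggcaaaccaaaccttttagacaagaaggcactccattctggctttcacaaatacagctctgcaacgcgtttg
KRT31: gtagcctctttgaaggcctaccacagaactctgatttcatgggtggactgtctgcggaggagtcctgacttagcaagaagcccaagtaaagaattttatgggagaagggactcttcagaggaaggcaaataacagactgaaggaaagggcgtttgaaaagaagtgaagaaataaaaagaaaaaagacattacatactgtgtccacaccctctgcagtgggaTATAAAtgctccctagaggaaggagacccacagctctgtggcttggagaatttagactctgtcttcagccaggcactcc
KRT5: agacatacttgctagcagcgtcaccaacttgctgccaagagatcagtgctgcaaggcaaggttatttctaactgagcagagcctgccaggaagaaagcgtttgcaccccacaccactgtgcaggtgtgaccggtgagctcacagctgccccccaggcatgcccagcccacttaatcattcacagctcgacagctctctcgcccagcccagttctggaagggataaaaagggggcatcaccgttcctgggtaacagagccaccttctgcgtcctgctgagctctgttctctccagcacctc
KRT85: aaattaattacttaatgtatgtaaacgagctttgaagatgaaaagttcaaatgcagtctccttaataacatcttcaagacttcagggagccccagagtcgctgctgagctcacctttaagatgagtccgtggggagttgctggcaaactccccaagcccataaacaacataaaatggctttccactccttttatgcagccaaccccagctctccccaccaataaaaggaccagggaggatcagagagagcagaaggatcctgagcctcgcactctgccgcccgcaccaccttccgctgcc
TATAAA began 28 bases before the start in KRT71, 30 before it in KRT25 and 29 before it in KRT31, and the KRT5 and KRT85 windows held none near the start.

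Promoter entries were matched for 34 of the 55 keratin genes, 38 entries in all. Among the genes without one were KRT6A, KRT6B, KRT6C, KRT14, KRT15, KRT16, KRT17, KRT81, KRT83 and KRT86. On the gene's strand, TATAAA lay within the last 60 bases before the start in 17 of 38 keratin entries (44.7%, 30.1 to 60.3%), against 977 of 35116 promoters of all genes (2.78%). In 16 of these 17 it began 31 to 27 bases before the start. Type II entries held it in 4 of 15 and type I entries in 13 of 23. Searched on both strands over the whole window, TATAAA was in 55.3% of keratin entries and 11.5% of all promoters, GGGCGG, the GC box of Sp1, in 15.8% and 45%, and GCCNNNGGC, an AP-2 core, in 13.2% and 23.2%. Each motif was counted separately, and matches of GGGCGG and GCCNNNGGC may overlap. A match is a stretch of letters and no measure of binding.

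Keratin peaks held more tags in the median than peaks at other genes. In the Flag-USP39 list the median was 7 tags per keratin peak (lowest 3, highest 49) and 4 tags at other genes (highest 1910). In the POLR2A list the medians were 6 tags (lowest 4, highest 47) and 4 tags (highest 1938). Peaks of 10 or more tags made up 26 of 71 Flag-USP39 keratin peaks (36.6%, 26.4 to 48.2%) and 312 of 11494 peaks at other genes (2.71%). They made up 22 of 70 POLR2A keratin peaks (31.4%, 21.8 to 43%) and 571 of 13957 at other genes (4.09%). Read the other way, keratins were 7.69% of the 338 Flag-USP39 peaks of 10 or more tags and 3.71% of the 593 such POLR2A peaks. The authors' fold enrichment over input differed less, with a median of 38.1 at keratins and 32.6 at other genes for Flag-USP39, and of 25.9 and 24.9 for POLR2A. The keratin peaks nearest to the listing thresholds had scores of 51.66 (Flag-USP39, threshold 50) and 40.53 (POLR2A, threshold 40), and weaker sites are not listed.

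To compare genes, the tags of all peaks on a gene body were divided by the body's length, with start and end positions taken from the deposited tables. A body is known only for a gene named by a peak in either list, so the 20 keratins with no peak are left out here, as are other genes without one. Bodies were known for 35 keratins, 3049 to 34519 bp long, with a median of 6224 bp. The intervals given are exact 95% Poisson intervals and cover counting error only. Among bodies of 3 to 15 kb, 23 of 32 keratins had a Flag-USP39 peak on the body, with a median of 3.61 tags per kb in those, against 304 of 2125 other genes with a median of 0.555. For POLR2A the counts were 24 of 32 keratins, median 3.14 tags per kb, and 774 of 2125 other genes, median 0.746. At least 5 tags per kb were reached by 6 keratins and 10 other genes in the Flag-USP39 list and by 8 keratins and 21 other genes in the POLR2A list.

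**Figure D1:**
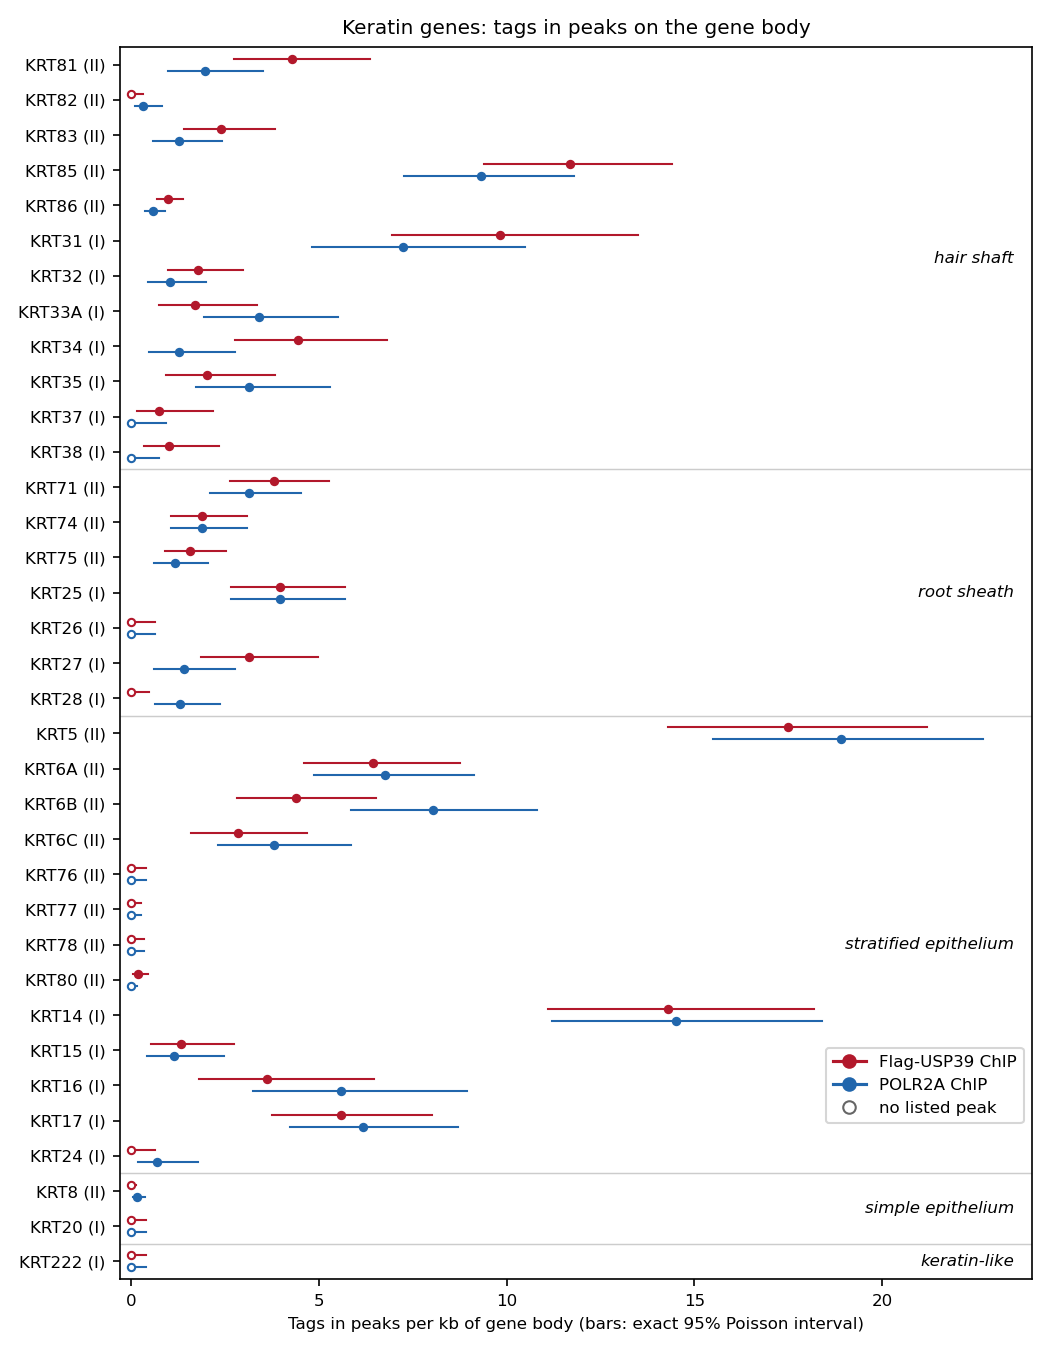
Tags in peaks per kb of gene body (x axis) for the 35 keratins whose body is in the tables, grouped by class, with the type in brackets. Flag-USP39 (red) is drawn above POLR2A (blue), bars are exact 95% Poisson intervals and open circles mark bodies with no listed peak. KRT5 and KRT14 lead at 14.3 to 18.9 tags per kb, and KRT8 and KRT20 lie at or near 0. KRT85 and KRT31 follow the leading pair with Flag-USP39, and KRT85 and KRT6B with POLR2A.

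The basal pair led in both lists. KRT5, the basal type II keratin, held 103 tags in 4 Flag-USP39 peaks, 17.5 tags per kb (14.3 to 21.2), and 111 tags in 4 POLR2A peaks, 18.9 tags per kb (15.5 to 22.7). Its partner KRT14 held 66 tags in 3 Flag-USP39 peaks, 14.3 tags per kb (11.1 to 18.2), and 67 tags in 3 POLR2A peaks, 14.5 tags per kb (11.2 to 18.4). The intervals of the 2 genes overlapped in both lists, so their order was not resolved by the counts. KRT5 was covered by peaks over most of its body, 81.1% with Flag-USP39 and 79.4% with POLR2A. The Flag-USP39 peak with the highest score of all keratins lay at the KRT14 start (chr17:39742549-39743211, hg19, 37 tags, fold 101), and the POLR2A peak there held 36 tags (chr17:39742243-39743229, fold 70.6). The KRT5 end held 45 Flag-USP39 tags (chr12:52908316-52909944) and 42 POLR2A tags (chr12:52908082-52909847). The KRT5 start held 18 Flag-USP39 tags (chr12:52913426-52914119) and 35 POLR2A tags (chr12:52913471-52914214). Tags of the 2 lists are not adjusted for depth.

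The inducible keratins of stratified epithelium also had peaks in both lists, at fewer tags per kb than KRT5 and KRT14. KRT6A held 40 Flag-USP39 tags (6.43 per kb) and 42 POLR2A tags (6.75 per kb), and KRT17 held 29 (5.59 per kb) and 32 (6.16 per kb). KRT6B held 24 Flag-USP39 tags, all in 1 peak at its end (4.38 per kb, 2.81 to 6.52), and 44 POLR2A tags in 6 peaks (8.04 per kb, 5.84 to 10.8). KRT16 held 11 and 17 tags, KRT6C 15 and 20, and KRT15, a keratin of basal and bulge cells, 7 and 6. Each of these genes thus had a peak on its body with both antibodies. KRT6A, KRT6B and KRT6C are near-identical copies, as are parts of KRT14, KRT16 and KRT17, so reads can be split among them and the count of a single copy is uncertain.

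By deposited name, hair shaft keratins carried 34 of 71 Flag-USP39 keratin peaks (47.9%, 36.7 to 59.3%) and 28 of 70 POLR2A keratin peaks (40%, 29.3 to 51.7%), at 9 and 11 of 17 genes. Placed on bodies, hair keratins held 29 Flag-USP39 and 22 POLR2A peaks, and keratins of stratified epithelia 22 and 27. Of named peaks of 10 or more tags, 8 with Flag-USP39 and 4 with POLR2A were at hair keratins, and 10 and 13 at those of stratified epithelia. Among POLR2A keratin peaks with a p-value of at most 1e-10 the hair share was 15.8%. KRT85, a type II keratin of the hair matrix and cortex, held 88 Flag-USP39 tags (11.7 per kb, 9.39 to 14.4) and 70 POLR2A tags (9.31 per kb, 7.26 to 11.8). Its end carried the keratin peak with the most tags in each list, 49 with Flag-USP39 (chr12:52753551-52754918) and 47 with POLR2A (chr12:52753724-52755032), both of the exon class. KRT31, a type I cortex keratin, held 38 tags (9.82 per kb, 6.95 to 13.5) and 28 tags (7.24 per kb, 4.81 to 10.5). The peak at the KRT31 end had the highest Flag-USP39 fold enrichment of all keratins, 114 with 20 tags (chr17:39549910-39550652), and 12 tags with POLR2A. The intervals of the 2 antibodies overlapped at KRT85 and at KRT31, in tags not adjusted for depth, so no likeness or difference in occupancy can be read from them.

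Other hair keratins were lower. KRT34 held 21 Flag-USP39 tags (4.45 per kb) and 6 POLR2A tags (1.27 per kb), KRT81 held 24 (4.28 per kb) and 11 (1.96 per kb), and KRT83 held 17 and 9. KRT33A held 8 and 16 tags and KRT35, the first type I keratin of the hair matrix, 9 and 14. The intervals overlapped at both genes, again without adjustment for depth. KRT37 and KRT38 had Flag-USP39 peaks of 3 and 5 tags on the body and no POLR2A peak there, and KRT82, of the hair cuticle, had no Flag-USP39 peak and a POLR2A peak of 4 tags. These sit at or just above the fewest tags a listed peak holds, 3 for Flag-USP39 and 4 for POLR2A. The hair keratins KRT33B, KRT36, KRT39, KRT40 and KRT84 had no listed peak with either antibody. KRT81, KRT83 and KRT86 are near-identical copies, as are KRT33A and KRT33B and, in part, KRT31 and KRT34, and the longest KRT86 transcript runs across KRT81 on the other strand. The KRT86 values, 34 and 20 tags over 34519 bp, therefore cannot be read as a level of that gene alone.

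By deposited name, root sheath keratins had 14 Flag-USP39 peaks at 6 of 9 genes and 15 POLR2A peaks at 5 of 9. Of all protein-coding genes 25.1% and 33.2% had a peak. Placed on bodies, root sheath keratins held 13 Flag-USP39 peaks at 5 genes and 12 POLR2A peaks at 6. KRT71, a type II keratin of the inner root sheath, held 35 Flag-USP39 tags (3.79 per kb, 2.64 to 5.27) and 29 POLR2A tags (3.14 per kb, 2.1 to 4.51). Its partner KRT25 held 29 tags in each list (3.97 per kb, 2.66 to 5.7). KRT27 held 18 and 8 tags, KRT74 15 and 15, and KRT75, of the companion layer, 16 and 12. KRT28 had no Flag-USP39 peak and 10 POLR2A tags, and KRT26 had no peak on its body in either list. The type II genes KRT72 and KRT73 had no listed peak with either antibody. Some type II and some type I genes of the root sheath thus had peaks on the body in both lists.

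Simple epithelial keratins held few tags. A peak was named for 1 of 5 genes with Flag-USP39 and 2 of 5 with POLR2A. Beside 25.1% and 33.2% of all protein-coding genes, such counts do not set these 5 genes apart. KRT7, KRT18 and KRT19 had no listed peak with either antibody. KRT8 had 1 Flag-USP39 peak of 3 tags, of the intergenic class (chr12:53277900-53278173), and 1 POLR2A peak of 4 tags in an intron (chr12:53317728-53318015). KRT20, of intestinal epithelium, had no Flag-USP39 peak and an upstream POLR2A peak of 4 tags. Promoter-class peaks were listed at none of these 5 genes with either antibody, beside 2.47% and 11.1% of all protein-coding genes. With 1 library and a floor of 3 or 4 tags a listed peak, occupancy below that level could not be detected.

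Keratins of differentiated stratified epithelia also held few tags. KRT1, KRT10 and KRT2 of the upper epidermis, KRT4 and KRT13 of mucosa, KRT3 and KRT12 of the cornea and KRT9 of palm and sole had no listed peak with either antibody. In a split made after the values were seen, the 8 basal and inducible genes (KRT5, KRT6A, KRT6B, KRT6C, KRT14, KRT15, KRT16 and KRT17) held 264 tags in Flag-USP39 peaks that carry their names and 314 in such POLR2A peaks. The other 15 genes of stratified epithelia held 8 and 13 tags, at 2 and 3 genes. Over all protein-coding genes 25.1% and 33.2% had a peak. With Flag-USP39 these were KRT76 and KRT80, with 4 tags each. With POLR2A they were KRT24 and KRT77, with 4 tags each, and KRT78 with 5, the KRT24 peak being of the promoter class. Over the bodies that the tables give, the basal and inducible genes held 7.2 and 8.27 tags per kb and the others 0.0635 with each antibody.

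Type II and type I keratins were close in number. Type II genes carried 38 of 71 Flag-USP39 keratin peaks (53.5%, 42 to 64.6%) at 13 of 26 genes, and type I genes 33 peaks at 13 of 29 genes. With POLR2A, type II genes carried 38 of 70 peaks (54.3%, 42.7 to 65.4%) at 14 genes and type I genes 32 at 15. The Flag-USP39 tags were 422 in type II peaks and 280 in type I peaks, and the POLR2A tags 404 and 269. Per kb of summed body length there were 2.03 tags for type II and 2.48 for type I in the Flag-USP39 list and 1.92 and 2.35 in the POLR2A list. Without KRT86, whose body of 34519 bp cannot be read as its own, type II had 2.25 Flag-USP39 tags and 2.19 POLR2A tags per kb. That sum still holds the long KRT8 body, 29283 bp with 0 Flag-USP39 and 4 POLR2A tags, which lowers the type II values. The median per gene was 1.87 tags per kb for type II and 1.735 for type I with Flag-USP39, and 1.27 and 1.28 with POLR2A, so no order of the types was common to these measures.

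Partner pairs were counted by whether a peak was named for both genes, for 1 or for none. Of 10 textbook pairs, 4 had a peak named for both partners in the Flag-USP39 list, 2 for 1 partner and 4 for none. The POLR2A counts were 5, 1 and 4. KRT5 with KRT14, KRT6A with KRT16, KRT6B with KRT17 and KRT71 with KRT25 had both in each list, and KRT85 with KRT35 had both in the POLR2A list. The Flag-USP39 peak on the KRT35 end carries the name of KRT32, and counted by body that pair too had both partners with both antibodies. KRT7 with KRT19, KRT1 with KRT10, KRT4 with KRT13 and KRT3 with KRT12 had none, and KRT8 with KRT18 had KRT8 alone. How often keratins that are not partners share a peak status was not counted, so no tie between partners can be read from these counts. KRT6A, KRT6B, KRT14, KRT16 and KRT17 are also among the copies whose reads can be split.

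**Figure D2:**
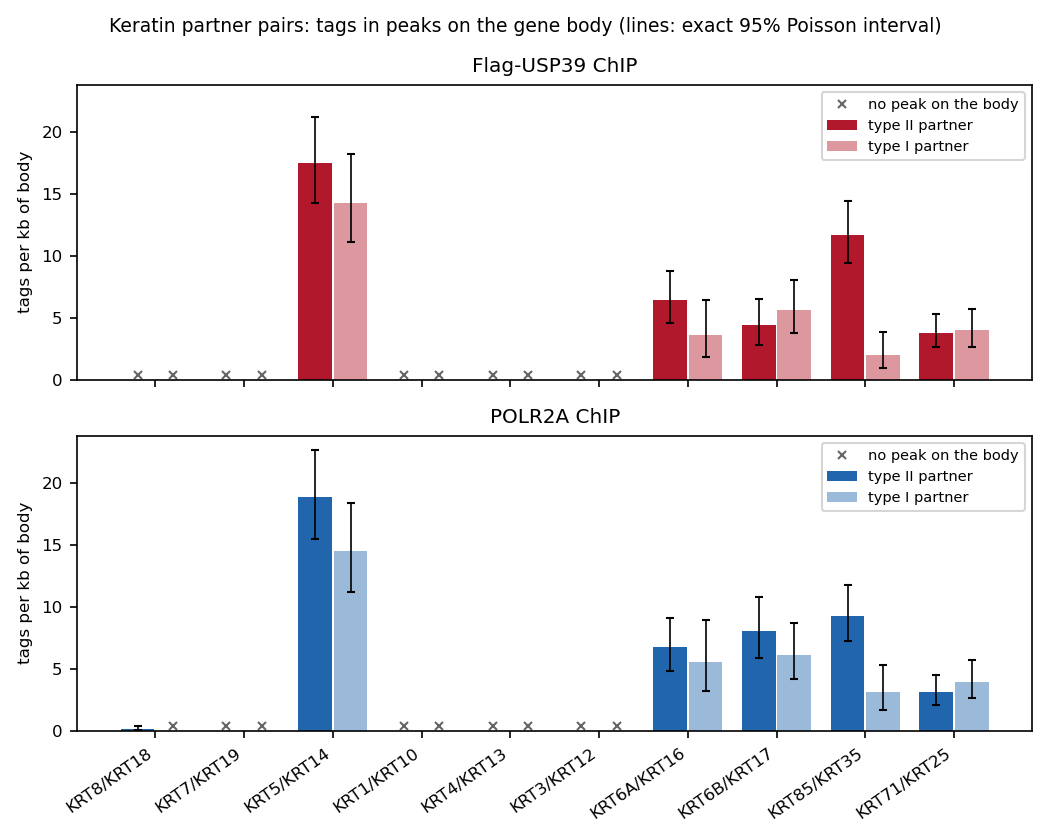
Tags in peaks per kb of gene body for 10 partner pairs, with the type II partner left of the type I partner and Flag-USP39 above POLR2A; lines are exact 95% Poisson intervals and crosses mark genes with no listed peak on the body. KRT5 and KRT14 are the highest pair in both lists, at 17.5 and 14.3 tags per kb with Flag-USP39, and 4 pairs show crosses at both partners in both lists.

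The name a peak carries was often that of a neighbour. Of 64 Flag-USP39 peaks on a keratin body 21 were named for another gene, and of 62 POLR2A peaks 22. Among keratin peaks of the deposited upstream class, up to 20 kb before a start, 20 of 23 Flag-USP39 peaks and 21 of 28 POLR2A peaks lay on the body of the next keratin. The 24-tag Flag-USP39 peak named for KRT75 (chr12:52840277-52841212) lay at the KRT6B end, where POLR2A had 12 tags. The 18-tag peaks named for KRT6C in each list lay at the KRT6A end, and the 16-tag POLR2A peak named for KRT6B lay at the KRT6C end (chr12:52862233-52863199). In these examples the gene named has its start farther from the peak than the gene the peak lies on: the centre of the peak at the KRT6B end is at -12634 bp from the KRT75 start and at 5165.5 bp from the KRT6B start. Tags per kb and tags on a body count peaks by position, whatever the name, while peak counts and tag sums of types and classes go by the deposited name unless stated.

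Within the bodies, keratin peaks were spread over starts, middles and ends. Zones were set as the 1 kb on either side of the start and of the end, in bodies of 3 to 15 kb. With Flag-USP39, 16 of 58 keratin peaks lay at a start (27.6%, 17.8 to 40.2%), 22 in the middle (37.9%) and 20 at an end (34.5%, 23.6 to 47.3%). Peaks on other genes lay at starts in 8.47%, in the middle in 72.6% and at ends in 18.9%, so the keratin share was larger at starts and at ends. The keratin bodies were shorter, with a median of 5476 bp against 9103 bp at other genes with a Flag-USP39 peak, and 66.3% and 77.8% of their length lay outside the 1 kb next to start and end. With POLR2A, 20 of 57 keratin peaks lay at a start (35.1%, 24 to 48.1%), 19 in the middle (33.3%) and 18 at an end (31.6%, 21 to 44.5%). Other genes had 44% of POLR2A peaks at starts, 40.8% in the middle and 15.2% at ends, so the end share was larger at keratins and the intervals for starts overlapped. The median lengths were 5743.5 bp for keratins and 8510 bp for other genes, with 68.7% and 76.8% outside those zones. Lengths were not matched between keratins and other genes. Among bodies with a Flag-USP39 peak, 14 of 23 keratins and 1 of 304 other genes had one at both the start and the end. Among bodies with a POLR2A peak these were 14 of 24 keratins and 49 of 774 other genes. A body needs more than 1 peak to be counted here, and peaks per body were not matched. The 23 keratin bodies held 58 Flag-USP39 peaks and the 304 other bodies 354. With POLR2A, 24 keratin bodies held 57 peaks and 774 other bodies 1022. These counts therefore follow in part from the choice of a family with many peaks.

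The start peaks of keratins lay inside the gene. All 16 Flag-USP39 start peaks had their centre downstream of the start site, 168.5 to 500 bp into the gene with a median of 268.25 bp, and all 20 POLR2A start peaks did so, at 72.5 to 874.5 bp with a median of 296.25 bp. The start site itself was spanned by 6 of the 16 and by 10 of the 20. At other genes Flag-USP39 start peaks had a median of 272.75 bp, close to that of keratins, with 80% of 30 downstream and 50% spanning the start. POLR2A start peaks at other genes had a median of 100 bp, with 69.1% of 450 downstream and 75.3% spanning the start. Counted as negative before the end of the transcript, the end peaks had a median centre of -324.5 bp with Flag-USP39 and -315.25 bp with POLR2A, against -390.5 and -361 bp at other genes. KRT71 shows the pattern, with 13 Flag-USP39 tags at the start, 4 in the middle and 18 at the end, and 10, 4 and 15 POLR2A tags.

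**Figure D3:**
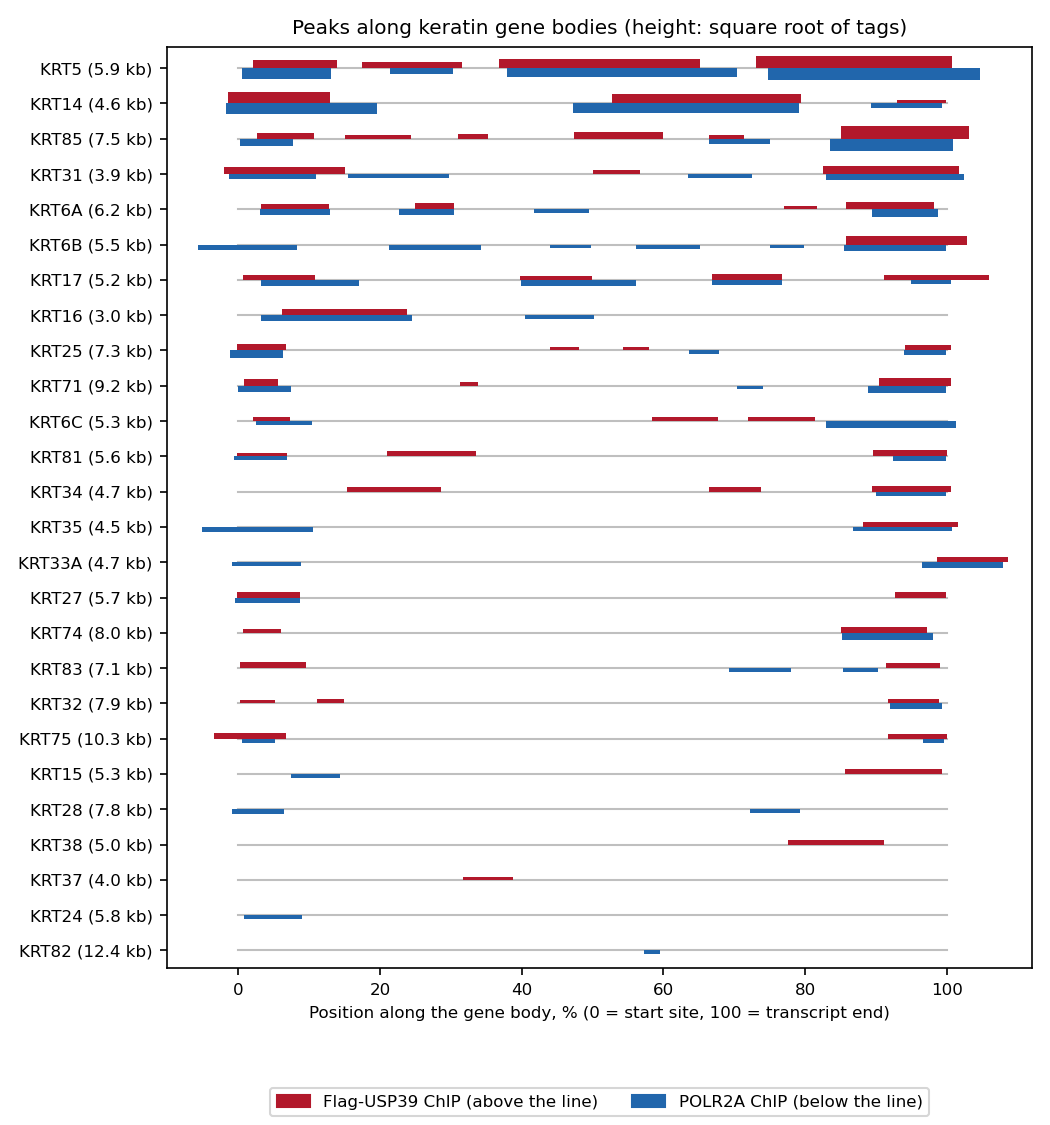
Peaks along 26 keratin gene bodies of 3 to 15 kb, each scaled to its length (x axis, % of the body), with Flag-USP39 above and POLR2A below the line and the height as the square root of the tags. Peaks stand just inside the start and just before the end in KRT25, KRT71, KRT75, KRT81 and KRT85 with both antibodies, while KRT5 is covered nearly throughout.

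The deposited classes describe the places of the peaks in another way. Of Flag-USP39 keratin peaks 27 were in the promoter class (38%, 27.6 to 49.7%), against 5.59% of peaks at other genes, and of POLR2A keratin peaks 24 (34.3%, 24.2 to 46%), against 17.8%. Upstream-class peaks were 23 (32.4%) against 12.9% for Flag-USP39 and 28 (40%) against 13.7% for POLR2A, and most of these lay on another keratin's body, where exon or intron was not read. Exon-class peaks were 13 (18.3%) against 4.3% for Flag-USP39 and 7 (10%) against 4.59% for POLR2A. Intron-class peaks were 4 (5.63%) against 31.2% and 9 (12.9%) against 27.7%, and intergenic peaks 4 (5.63%) against 46.1% and 2 (2.86%) against 36.2%. Counted within 1 kb of a start site, the Flag-USP39 promoter share was 23.9%, and among POLR2A keratin peaks with a p-value of at most 1e-10 the promoter share was 52.6%. Few keratin peaks carried the intergenic class in either list.

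**Figure D4:**
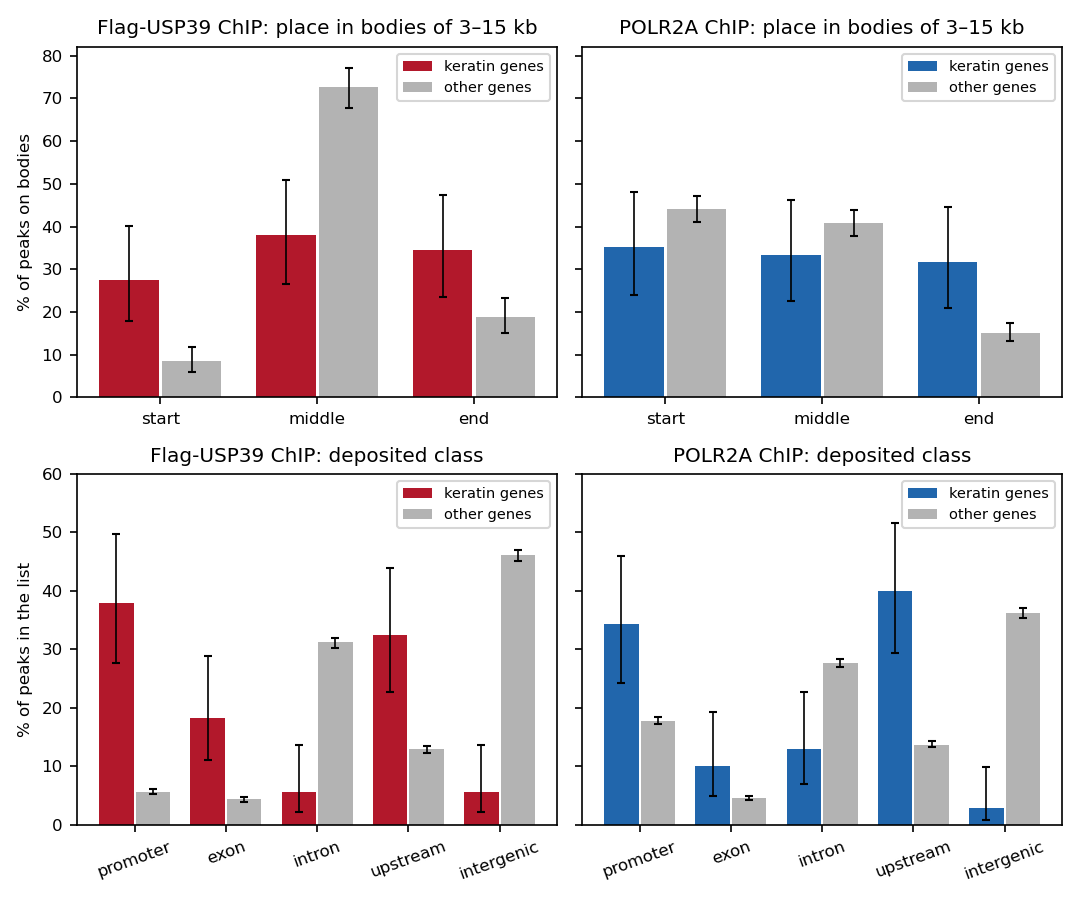
Share of peaks (y axis, %) by place in gene bodies of 3 to 15 kb (top) and by deposited class (bottom), with Flag-USP39 left of POLR2A; coloured bars are keratin genes, grey bars other genes, and lines are 95% Wilson intervals. Among Flag-USP39 peaks 72.6% of those on other genes lie mid-body against 37.9% on keratins, and intergenic peaks are few at keratins in both lists.

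How many of the genes that work with keratins had a peak differed between the gene lists, and most of their peaks held few tags. The lists were chosen with earlier results of these data known. Over all protein-coding genes 25.1% had a Flag-USP39 peak and 33.2% a POLR2A peak, and 2.47% and 11.1% had one of the promoter class. Among 14 anchors and linkers of filaments, 8 had a Flag-USP39 peak and 10 a POLR2A peak, with highest tags of 8 at DST and JUP with Flag-USP39 and of 28 at PKP1, a desmosome protein, with POLR2A. Of 14 genes of the cornified envelope, the shell of dead epidermal cells, none had a Flag-USP39 peak and TGM1, a cross-linking enzyme, had a POLR2A peak of 6 tags. Of 13 regulators of keratin genes, 9 had a Flag-USP39 peak, none in the promoter class, and 3 a POLR2A peak. TFAP2A alone among them had POLR2A promoter peaks, 4 with at most 7 tags each. TP63, the master regulator of the basal layer, reached 5 Flag-USP39 tags and 8 POLR2A tags in a peak. Among 15 other intermediate filament genes 3 had a Flag-USP39 peak and 7 a POLR2A peak, and VIM, the filament of mesenchymal cells, had promoter peaks of 4 and 25 tags.

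Markers of cell types stand beside these results as follows. Of 6 ovarian tumour markers, WT1 and ESR1 had Flag-USP39 peaks of at most 4 tags, PAX8, WT1 and ESR1 had POLR2A peaks of at most 5, and MUC16, MSLN and FOLR1 had none. Beside the 25.1% and 33.2% of all protein-coding genes with a peak, such counts in short lists say little of a cell type. Of 8 simple epithelium markers 1 had a Flag-USP39 peak (KRT8, 3 tags) and 3 a POLR2A peak (KRT8 and CDH1 with 4 tags, CLDN4 with 5). These peaks were of the intron or intergenic class. KRT7, KRT18, KRT19, EPCAM and CLDN3 had no peak in either list. The keratinocyte and hair follicle lists include keratins described above, which restate the choice of the family. Their other members were TP63, given above, HOXC13, with a Flag-USP39 peak of 4 tags and no POLR2A peak, and TCHH, a protein of the root sheath, with a highest peak of 78 tags with Flag-USP39 and 74 with POLR2A. These lists too were chosen with earlier results of these data known, so the TCHH values are no evidence of their own. Of 4 markers of other cell types none had a Flag-USP39 peak, MYOD1, of muscle, had a POLR2A promoter peak of 4 tags, and PTPRC, HBB and ALB had none in either list. Of 5 mesenchyme markers 3 had a Flag-USP39 peak (VIM, FN1 and CDH2, at most 4 tags) and 4 a POLR2A peak (VIM with 25 tags, ZEB1 with at most 5, CDH2 and SNAI2 with at most 4). The part of another cell source, of the shared input or of read copies in the keratin values was not tested.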

How the data were processed

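ChIP-seq of A2780 cells gave 3 libraries, 1 per group: Flag-USP39, POLR2A and input, grouped by the antibody in the labels. The submitters' processing notes name Bowtie2 2.2.4, MACS 1.4.3 and the build hg19. For read filters, the annotation and total tags, values were not given in the sources used here. One peak table per antibody was used, each called against the same input on unpooled libraries. The authors deposited raw tag counts per peak. Their deposited score equals the caller's log10 p-value times minus 10, as headed, and their deposited fold enrichment is a ratio to the background. A deposited false discovery rate in percent was at most 0.01% in Flag-USP39 peaks and 0.26% in POLR2A peaks. The authors' lists start at scores of 50 and 40. All Flag-USP39 peaks together held 62327 tags and all POLR2A peaks 86228, which are not adjusted for depth.

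Lines repeated per transcript (20273 and 27766) were merged to 1 per position, with the class of the nearest start site. A peak was placed on the shortest gene body that held at least 50% of it, else on the body sharing most bases, which was checked on simulated data. Names and promoters came from RefSeq GRCh38.p14, positions from the tables. The background was 20056 protein-coding genes. Shares carry 95% Wilson intervals, which treat peaks as independent, and tag sums exact Poisson intervals, in Python 3.11.15 with pandas 2.3.3 and SciPy 1.17.1. Genes named are keratins and members of the lists. The members and lists were chosen with earlier results of these data known, and the split of stratified keratins and the placement on bodies after the values were seen. Other thresholds on p-values and tags, other gene assignments and other class definitions were tried.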

Additional observations from a re-analysis of the deposited data

How the results depend on the processing

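Of 70 alternative values, 6 could not change, since the Flag-USP39 list starts at the common p-value threshold of 1e-05. Of the other 64, 53 stayed within the tolerance, which was 1.5 times for a count or a tag sum and the 95% interval of the reported value for a share, and 11 moved. Within it, values still shifted: with a p-value of at most 1e-10 the Flag-USP39 tags were 473 and the hair share 37.9%, POLR2A keratin peaks were 56 at 1e-05 and 50 with at least 5 tags, and by gene body the POLR2A hair share was 35.5%. With a p-value of at most 1e-10, 29 Flag-USP39 keratin peaks at 14 genes and 19 POLR2A peaks at 11 genes were left, since fewer peaks pass. The POLR2A tags were then 377, the type II share 68.4%, the hair share 15.8% and the promoter share 52.6%; the cause of the shifts in share was not tested. With promoters taken within 1 kb, the Flag-USP39 promoter share was 23.9%, by a narrower definition. With root sheath keratins added to the hair shaft, the hair share was 67.6% for Flag-USP39 and 61.4% for POLR2A, by a wider one. Assignment by gene body was chosen after seeing the data. The planned count of Flag-USP39 keratin peaks that meet a POLR2A peak is not given, since both lists share the input. No paired analysis was possible because each group holds 1 library.

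A median peak of 4 tags carries a wide counting error, sites under 3 or 4 tags are not listed, and 5 Flag-USP39 and 20 POLR2A keratin peaks sit at that floor. Tag counts of the 2 antibodies are not adjusted for depth, so their sizes cannot be set against each other as occupancy.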
